A study of Mus musculus with 8 samples.

Results

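Splicing factor and hnRNP genes were examined in the livers of mice with and without a liver-specific knockout of Matr3. They were taken as the protein-coding genes whose symbol begins with Hnrnp, Srsf, Sf3a, Sf3b, Snrp, U2af or Rbm. The rule found 102 of the 54532 genes in the count table: 20 Hnrnp, 11 Srsf, 3 Sf3a, 6 Sf3b, 12 Snrp, 3 U2af and 47 Rbm genes. It reads symbols and no measured value. Genes of the same machinery under other names, such as the Snrnp genes, are given as separate lists. Of the 102 genes, 92 passed the filter on low counts and were tested. The study sequenced liver RNA from chow-fed mice at 16 weeks of age, female and male, as stranded poly(A) libraries. All mice carried floxed Matr3, in which the gene can be cut out by Cre recombinase. The floxed groups carried these alleles alone. The LKO (liver-specific knockout) groups also carried Albumin-Cre, a Cre transgene driven by the promoter of Alb, a gene of hepatocytes. The 4 groups, female floxed, female LKO, male floxed and male LKO, held 2 libraries each, and each library was made from RNA of 2 mice. No group carried Cre without floxed Matr3, so Cre and Matr3 loss cannot be told apart. The p-values therefore measure how far such pooled libraries differ.

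Introns are removed from pre-mRNA by the spliceosome, which is built from small nuclear ribonucleoproteins (snRNPs). The Snrp genes encode snRNP proteins, among them the Sm proteins that form a ring around the snRNA. The U2af proteins bind the end of the intron and help to place the U2 snRNP at the branch point, where the SF3a and SF3b complexes are part of it. SR proteins (Srsf) mostly bind exon sequences and promote the use of nearby splice sites, while hnRNPs bind nascent RNA and often oppose them. The Rbm genes share little beyond an RNA-binding domain in the name, and range from splicing factors to regulators of mRNA stability and editing. Many of these proteins tune their own mRNA through splicing to forms that are degraded. Matrin-3 is an RNA- and DNA-binding protein of the nuclear matrix that binds pre-mRNA and takes part in alternative splicing.

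RefSeq promoters of the GRCm38.p6 build were matched to 86 of the 102 genes. Over the 250 bases before the start, the 78 matched genes that were also tested had a median GC content of 60%, against 52.4% over all 32851 promoters of the table. The median ratio of observed to expected CpG was 0.837 against 0.373. Letters were searched on both strands. The ETS core CCGGAAG was found in 24.4% of the 78 promoters and in 6.91% of all promoters, the GC box GGGCGG in 53.8 and 32.7%, and CCAAT in 46.2 and 33.8%. The shares were closer for TATAAA (14.1 and 12.4%), the E-box CACGTG (7.69 and 6.02%) and the STAT palindrome TTCNNNGAA (8.97 and 7.02%). The NRF1 palindrome was in none of the 78 and in 0.782% of all promoters. These shares are descriptions, and a match is not a site. The 32851 promoters include those of genes not tested here, and no share over all tested genes was computed. The differences are therefore not read as particular to these genes. The 150 bases before the start are shown for 4 genes. Rbm43 was the 1 member called lower in LKO livers by edgeR, and Srsf5, Hnrnph1 and Rbm47 were called between the sexes. The sequences are written 5′ to 3′ on the strand of the gene, with matches to the ETS core and the GC box in capitals. They lie at chr2:51935164-51935313 (minus strand), chr12:80945349-80945498 (plus), chr11:50376840-50376989 (plus) and chr5:66151955-66152104 (minus).
Rbm43: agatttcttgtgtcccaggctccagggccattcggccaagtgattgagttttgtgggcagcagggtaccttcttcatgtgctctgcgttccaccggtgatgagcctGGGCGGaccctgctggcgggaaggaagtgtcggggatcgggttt
Srsf5: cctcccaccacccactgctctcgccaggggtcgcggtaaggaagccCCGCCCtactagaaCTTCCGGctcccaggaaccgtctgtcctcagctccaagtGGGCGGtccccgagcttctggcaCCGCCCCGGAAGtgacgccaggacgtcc
Hnrnph1: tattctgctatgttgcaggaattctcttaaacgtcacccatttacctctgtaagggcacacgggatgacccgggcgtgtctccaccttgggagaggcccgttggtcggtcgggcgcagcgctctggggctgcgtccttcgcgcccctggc
Rbm47: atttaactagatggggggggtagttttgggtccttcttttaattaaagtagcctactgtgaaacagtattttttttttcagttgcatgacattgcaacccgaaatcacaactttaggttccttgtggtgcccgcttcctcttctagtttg
Rbm43 has 1 GC box here. Srsf5 has 3 GC boxes and 2 ETS cores, of which the last GC box and the last ETS core share a base. Neither set of letters is in the 150 bases shown for Hnrnph1 and Rbm47, although both have a GC box further upstream within the 250 bases. The RefSeq start used for Rbm47 lies inside the gene as the count table gives it (chromosome 5, 66016549 to 66173118).

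Levels are given as CPM, counts scaled to library size with TMM factors, and between genes as RPKM, CPM per kilobase of the deposited gene length. Over the 8 libraries Srsf5, an SR protein, stood highest at 84.0 ± 12.9 RPKM (SD, n = 8), with a range from 65.1 to 100.5. Hnrnpa2b1, an hnRNP that also takes part in RNA transport, followed at 62.1 ± 4.25 RPKM (SD, n = 8), and the ranges of these 2 genes overlapped. U2af1, the small U2AF subunit that reads the AG at the intron end, came next at 41.2 ± 3.36 RPKM (SD, n = 8), and its range did not reach that of Hnrnpa2b1. Hnrnpab (38.0 RPKM), Srsf2 (37.9), Hnrnpk (37.9) and Sf3b2 (34.4) followed with overlapping neighbours. Each further family had its own leader. Sm protein gene Snrpb led the Snrp genes at 25.0 RPKM, Rbm17, a splicing factor, led the Rbm genes at 18.0 RPKM, and Sf3a2 led the Sf3a genes at 7.22 RPKM.

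**Figure D1:**
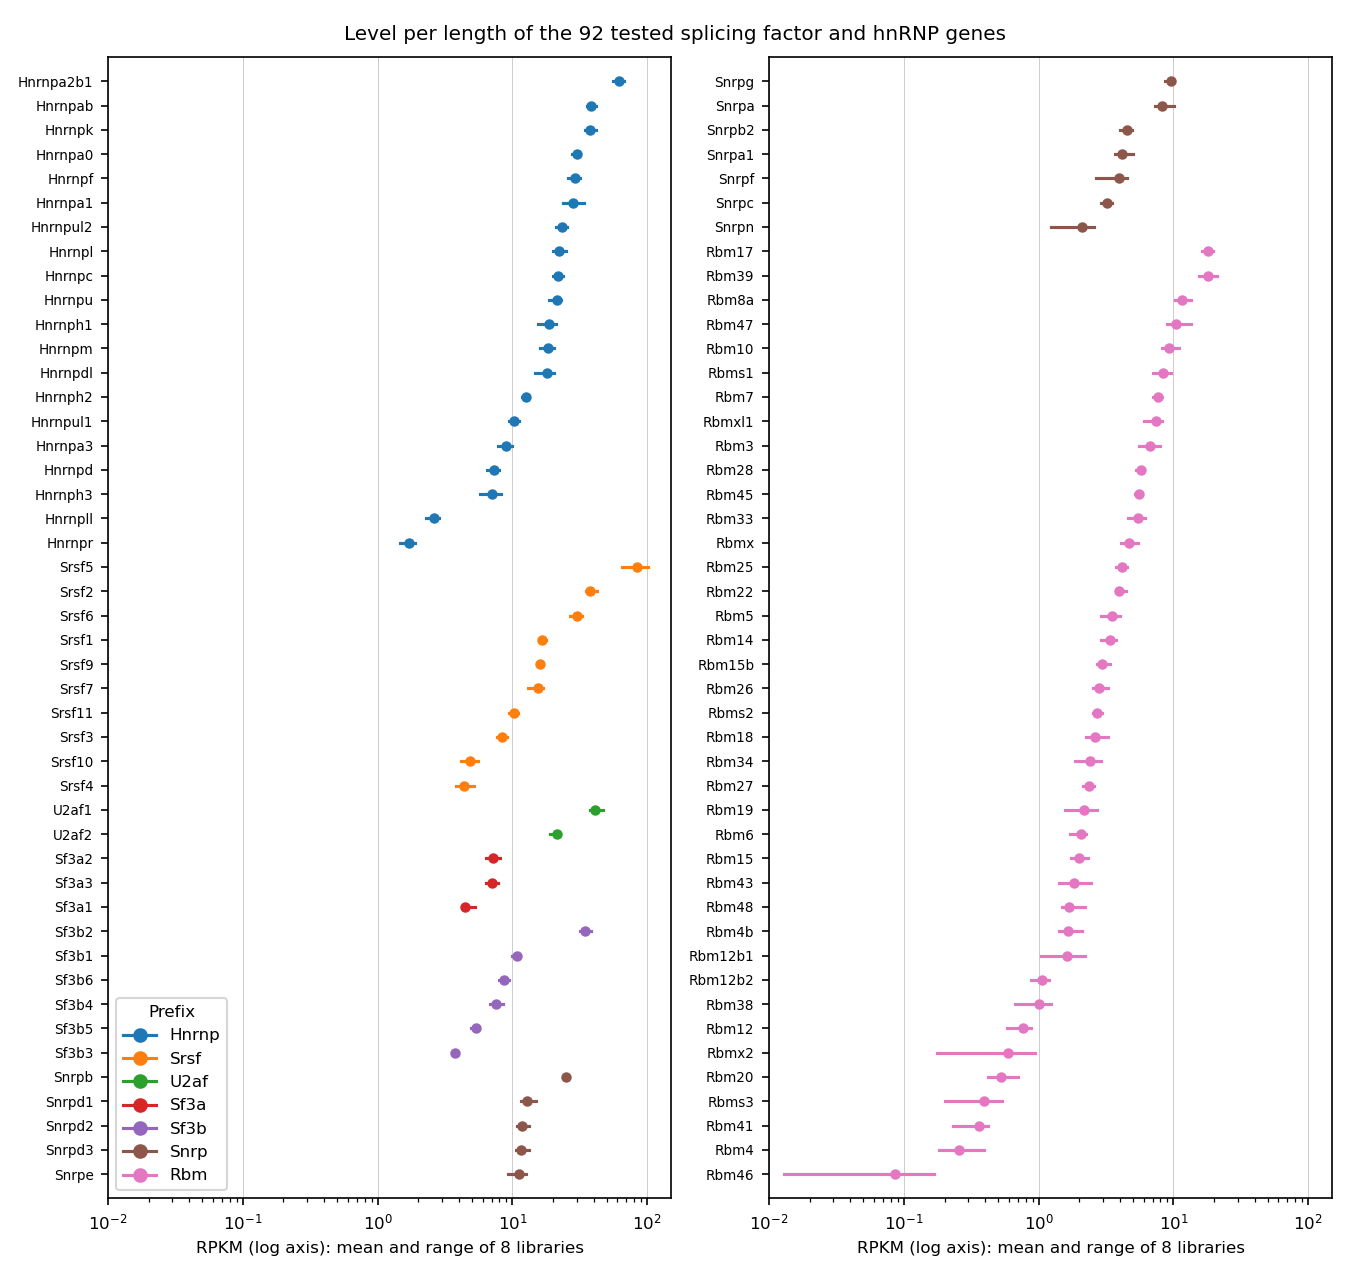
Level of each of the 92 tested genes, in RPKM on a log axis. Points are means over 8 libraries, lines run from the lowest to the highest library, and colours mark the symbol prefix. Srsf5 and Hnrnpa2b1 stand highest and Rbm46 lowest, and the Rbm genes span the widest range.

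The families differed in spread of level. The median was 19.9 RPKM over the 20 Hnrnp genes (1.70 to 62.1 RPKM), 15.7 RPKM over the 10 tested Srsf genes (4.33 to 84.0 RPKM) and 8.88 RPKM over the 12 Snrp genes (2.10 to 25.0 RPKM). The 39 tested Rbm genes had a median of 2.73 RPKM and ran from 0.0864 RPKM for Rbm46, a germ cell gene, to 18.0 RPKM. The levels depend on the transcript length used, which differs between the deposited values and the exon lengths of the GENCODE M21 annotation for 8 of the 92 genes. With the GENCODE lengths U2af1 stood at 15.4 RPKM, Sf3b2 at 16.3, Hnrnpm at 10.9 in place of 18.5, Hnrnpul2 at 18.9 in place of 23.5, Srsf7 at 9.90 in place of 15.4 and Snrpd1 at 5.26 in place of 12.9, while Rbm27 and Rbm4b moved little. The medians were then 18.8 RPKM for the Hnrnp, 13.1 for the Srsf and 6.75 for the Snrp genes, and that of the Rbm genes was still 2.73. U2af2, the large subunit, at 21.3 RPKM with the deposited length, then led its family. The 3 Sf3a genes ran from 4.48 to 7.22 RPKM and the 6 Sf3b genes from 3.78 to 34.4 RPKM with the deposited lengths, or to 16.3 RPKM with the others.

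The 10 genes left untested held few reads. Rbmxl2 and the Y-linked Rbmy and Rbm31y had no count in any library. For Rbmxl2 the limit that a count of 0 allows, 3 counts, is 0.110 CPM in the library where it is highest, and covers counting error only. For Rbmy and Rbm31y all of the 50-base words (100%) occur in other annotated genes, so their 0 need not be a low level and no limit is given. Summed over all 8 libraries, Rbm11 had 3 counts, Rbm24, which acts in muscle, had 7, Rbm8a2 9, Rbm44 16, Srsf12 19, Rbm42 27 and U2af1l4 38. The annotation also bears on the low counts of Rbm42 and U2af1l4. Of the exonic bases of Rbm42, 75.4% also belong to the annotated gene Gm21982 on the same strand, which had 0 counts. Of those of U2af1l4, 65.6% belong to Gm49396, which had between 39 and 140 counts per library. The treatment of reads that 2 genes share is not stated in the labels, so for these genes a low count need not be a low level.

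Total counts per library lay between 28048469 and 43383157, and the 102 genes held 0.448 to 0.523% of them. Of the pairs of libraries within a group, the male floxed pair differed most (chi-square over its degrees of freedom 55.1, and 11.9 to 24.7 in the other groups). The 11 hepatocyte markers summed to 137388 to 140877 CPM in female floxed, 127651 to 131413 in female LKO, 106871 to 126822 in male floxed and 99537.6 to 99899.1 in male LKO libraries, lower in LKO within each sex. Neutrophil markers summed to 6.70 CPM or less and lymphocyte markers to 12.4 CPM or less, and Ly6g, a defining neutrophil gene, had no count. Between LKO and floxed livers, 4 of 10 stellate cell markers were called lower (Col1a1, Col1a2, Col3a1 and Lrat). Their list summed to 554 to 587 CPM in female floxed, 469 to 488 in female LKO, 403 to 511 in male floxed and 348 to 357 in male LKO libraries. Of the 11 hepatocyte markers, Apoa1 was called lower, and 5 were lower and 2 higher at an unadjusted p under 0.05. At that p 9.36% of all genes tested were lower and 8.82% higher. Of 17 immediate-early genes, Nr4a1 was called higher. The immediate-early list summed to 290 to 291 CPM in female floxed, 314 to 346 in female LKO, 248 to 360 in male floxed and 506 to 776 in male LKO libraries. No marker of cholangiocytes, endothelial cells, Kupffer cells, lymphocytes, neutrophils or erythroid cells was called there (edgeR). Of the 8 tested cholangiocyte markers, however, 6 were lower at an unadjusted p under 0.05, with a median log2 fold change of -0.64. That list summed to 101 to 113 CPM in female floxed, 61.5 to 63.8 in female LKO, 83.6 to 91.7 in male floxed and 66.6 to 97.2 in male LKO libraries, so that the female groups were apart and the male groups overlapped. The part of these markers in the results below was not tested, and in bulk liver, fewer cells of a type and less RNA per cell cannot be told apart.

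Matr3 itself (ENSMUSG00000037236, mm10 chromosome 18, 35562146 to 35593835, plus strand) stood at 59.3 and 56.5 CPM in female floxed libraries and at 32.8 and 31.5 CPM in female LKO libraries. In males the floxed libraries had 56.7 and 52.7 CPM and the LKO libraries 26.4 and 28.6 CPM. Every LKO library lay below every floxed library. As the mean of both sexes it fell by 0.92 on the log2 scale (SE 0.0567, edgeR adjusted p = 0.000346), to 0.529 of the floxed level. Bulk liver also holds cells other than hepatocytes, in which Matr3 was not measured apart, and counts over the whole gene include what is left outside a deleted segment.

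LKO and floxed livers were then compared for the 92 genes. Of these, 1 fell and none rose in LKO against floxed livers, as the mean of both sexes (edgeR quasi-likelihood test, Benjamini-Hochberg over 16613 genes, threshold 0.05). Over all genes tested 0.975% were called lower and 0.777% higher. At an unadjusted p under 0.05, 12 were lower and 6 higher, which is 18 of 92, where all genes gave 9.36% lower and 8.82% higher. With DESeq2 1 gene was called lower (1.88% of all genes) and with limma-voom 1 (0.915% of all genes), the same gene each time. In both sexes, the 2 LKO libraries lay above the 2 floxed libraries of that sex for 5 genes and below them for 12, against 7.9 and 7.8% of all genes. The 12 were Hnrnpa2b1, Hnrnpk, Hnrnpu, Rbm3, Rbm4b, Rbm5, Rbm12b2, Rbm39, Rbm43, Rbmx, Sf3b2 and Srsf7, and the 5 were Rbm10, Rbm15b, Rbm34, Rbm38 and Srsf4.

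**Figure D2:**
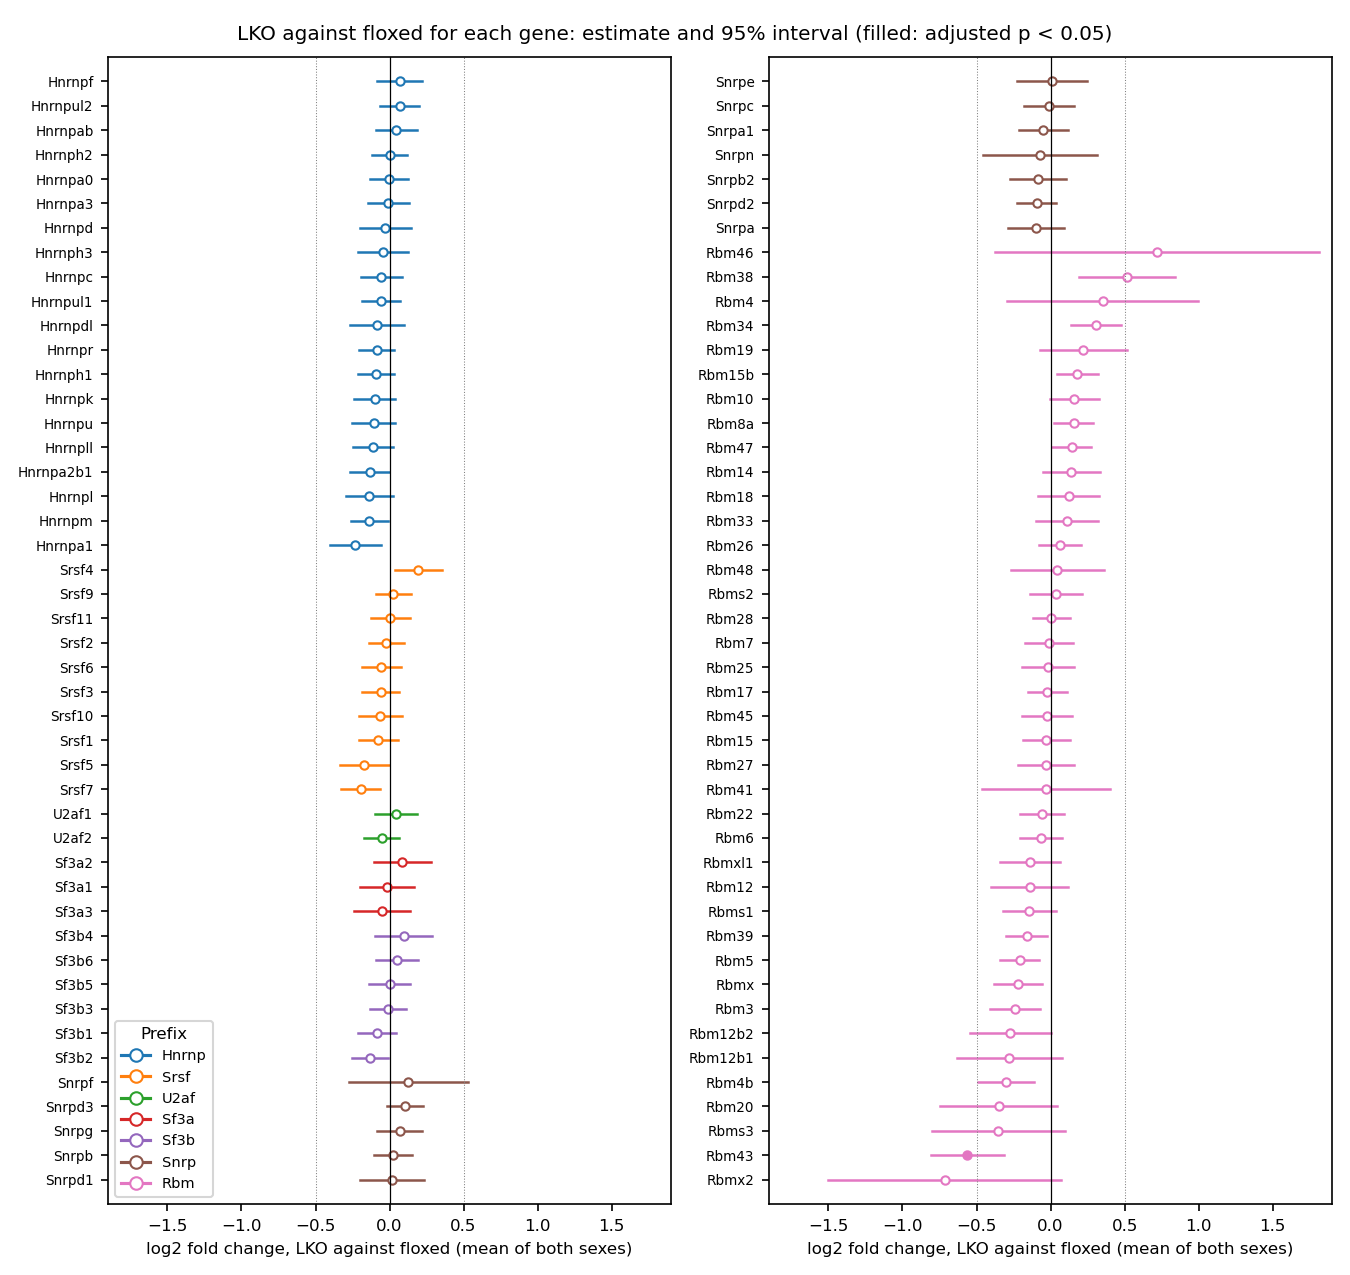
Log2 fold change of each tested gene in LKO against floxed livers, mean of both sexes, with its 95% interval from the edgeR fit. Colours mark the prefix, dotted lines stand at 0.5 on either side of 0, and the filled point is the 1 gene that passed, Rbm43.

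The gene called was Rbm43 (ENSMUSG00000036249, mm10 chromosome 2, 51924448 to 51935163, minus strand), whose protein carries an RNA recognition motif and whose promoter is the first shown. It stood at 5.46 and 5.31 CPM in female floxed and 4.17 and 3.69 CPM in female LKO libraries. In male floxed libraries it stood at 5.77 and 6.43 CPM and in male LKO libraries at 3.73 and 3.91 CPM. All LKO libraries were below all floxed ones. It fell by 0.56 on the log2 scale (SE 0.11, 95% interval -0.81 to -0.31, edgeR adjusted p = 0.0423), to 0.678 of the floxed level. The log2 fold change was -0.45 in females and -0.67 in males, and the difference between the sexes was 0.22 (SE 0.22, edgeR adjusted p = 0.871). No annotated gene overlaps its exons and none of its 50-base words occurs in another gene's transcripts. The call rests on 6 of the 8 libraries: without any 1 of the female libraries or the male LKO libraries the edgeR adjusted p lay between 0.0874 and 0.192.

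Among the hnRNP genes, 17 of 20 estimates lay below 0 and none passed, with a median log2 fold change of -0.07 against -0.004 over all genes tested. Of all genes tested, 8477 of 16613 lay below 0. The hnRNP genes all had a mean of at least 22.4 CPM. Among all genes at a mean of at least 10 CPM, 3293 of 8077 lay below 0, with a median of 0.0297. Hnrnpa1, which binds silencers of splicing and is the hnRNP with the smallest p, stood at 107.3 and 107.7 CPM in female floxed and 82.1 and 86.6 CPM in female LKO libraries. The male floxed libraries had 94.4 and 75.2 CPM and the male LKO libraries 78.7 and 78.0 CPM. The female groups were apart, while the male floxed libraries lay on either side of the male LKO ones. Its log2 fold change was -0.23 (SE 0.0754, edgeR adjusted p = 0.157), and it depends on the male floxed libraries: without library 1 it was -0.14 (edgeR adjusted p = 0.234) and without library 2 -0.31 (edgeR adjusted p = 0.0186). Of its 50-base words, 28.2% occur in other annotated genes, so its count is less certain. Hnrnpa2b1 stood at 431.8, 443.6, 431.4 and 404.6 CPM in the floxed libraries, females first, and at 403.3, 418.3, 374.9 and 364.7 CPM in the LKO libraries, a log2 fold change of -0.13 (SE 0.0573, edgeR adjusted p = 0.260). Each LKO library lay below both floxed libraries of its sex.

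**Figure D3:**
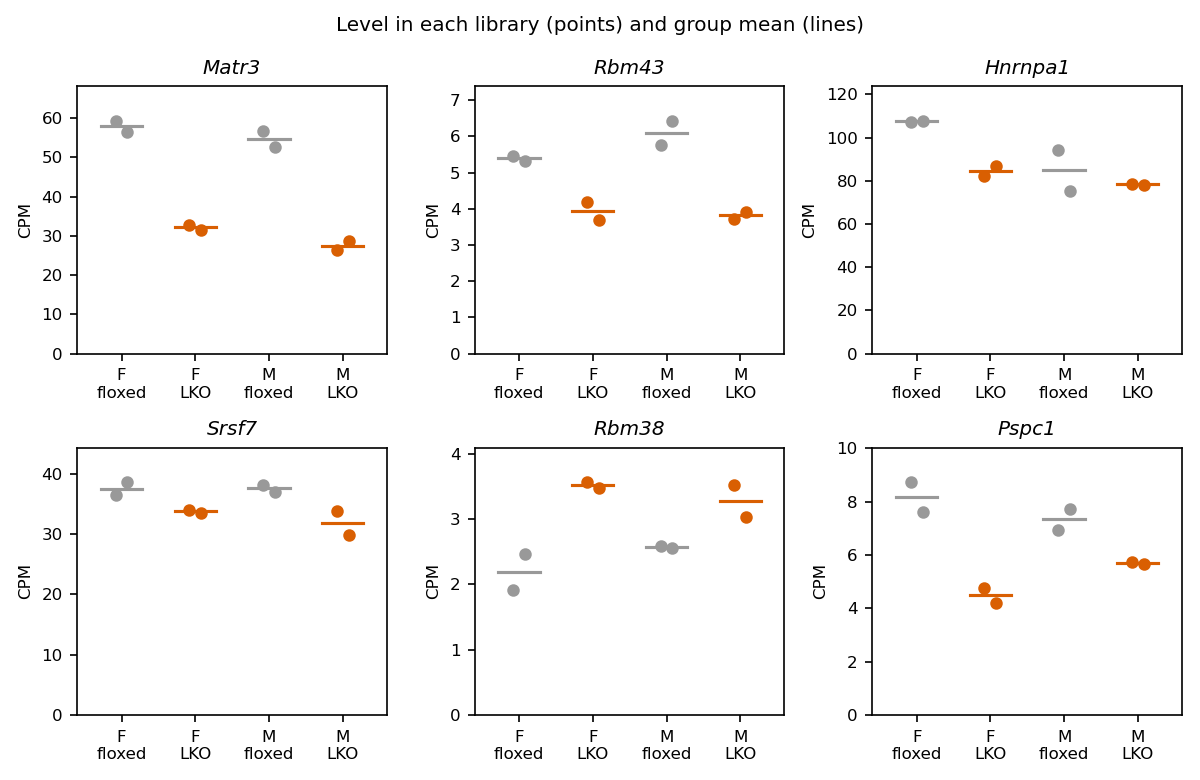
Level in CPM of Matr3, Rbm43, Hnrnpa1, Srsf7, Rbm38 and Pspc1 in each library. Points are libraries, lines are means of 2 libraries, grey marks floxed and orange LKO, and each axis starts at 0. Matr3, Rbm43, Srsf7 and Pspc1 are lower in all 4 LKO libraries, Rbm38 is higher in all 4, and the male groups of Hnrnpa1 overlap.

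None of the 10 SR protein genes passed, with 7 estimates below 0 and a median of -0.06. The counts over all genes given for the hnRNP genes stand beside these too. Srsf7 had the smallest p: it stood at 36.4 and 38.5 CPM in female floxed, 33.9 and 33.5 CPM in female LKO, 38.2 and 37.0 CPM in male floxed and 33.8 and 29.9 CPM in male LKO libraries. All LKO libraries were below all floxed ones, by a log2 fold change of -0.20 (SE 0.0588, edgeR adjusted p = 0.134). Srsf4 went the other way, with 13.7 to 15.0 CPM over floxed and 15.1 to 18.4 CPM over LKO libraries, and did not pass. Of its exonic bases, 43% lie antisense to the annotated gene Gm12992. Srsf5, the most abundant, had a log2 fold change of -0.17 (SE 0.0738, edgeR adjusted p = 0.268), and -0.11 to -0.22 over 15 alternative fits.

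In the core of the spliceosome no gene passed. The 12 Snrp genes had a median log2 fold change of -0.001, and 6 lay above and 6 below 0. Snrpd3, a protein of the Sm ring and the one with the smallest p, had a log2 fold change of 0.10 (SE 0.053, edgeR adjusted p = 0.337), and Snrpb 0.02. Sf3b2 of the U2 snRNP stood at 109.0, 114.1, 123.9 and 118.1 CPM in the floxed libraries and at 106.1, 103.1, 107.6 and 107.1 CPM in the LKO libraries, females first. The groups were apart with a log2 fold change of -0.13 (SE 0.0538, edgeR adjusted p = 0.237). U2af1 stood at 36.4 and 39.5 CPM in female floxed, 41.6 and 46.0 CPM in female LKO, 38.7 and 43.3 CPM in male floxed and 37.5 and 37.8 CPM in male LKO libraries. Sf3a2 had a log2 fold change of 0.09, U2af1 0.04 and U2af2 -0.05, with ranges over 15 alternative fits of 0.020 to 0.164, 0.0024 to 0.085 and -0.071 to -0.033. None of the 3 Sf3a, 6 Sf3b and 2 tested U2af genes passed. For every one of these 11 genes the 95% interval of the mean of both sexes lay within 0.5 of 0 on the log2 scale. It also did for 11 of the 12 Snrp genes. A mean of both sexes can hide effects of opposite sign. For the difference of the LKO effect between the sexes, the interval lay within 0.5 for 2 of 3 Sf3a, 6 of 6 Sf3b, 0 of 2 U2af and 6 of 12 Snrp genes.

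The 39 tested Rbm genes spread the most, with a median absolute log2 fold change of 0.144. Besides Rbm43 none passed. Rbm38, which binds and stabilises mRNAs of cell cycle inhibitors, stood at 1.91 and 2.46 CPM in female floxed and 3.56 and 3.47 CPM in female LKO libraries, and at 2.58 and 2.56 CPM in male floxed and 3.51 and 3.03 CPM in male LKO libraries. It was higher in all 4 LKO libraries, by a log2 fold change of 0.52 (SE 0.144, edgeR adjusted p = 0.114). Rbm34 stood at 11.9 and 12.1 CPM in female floxed, 14.4 and 14.0 CPM in female LKO, 9.31 and 9.37 CPM in male floxed and 12.6 and 11.3 CPM in male LKO libraries. Its LKO libraries were above the floxed ones within each sex, with a log2 fold change of 0.30 (SE 0.0745, edgeR adjusted p = 0.0855). Rbm4b was lower by a log2 fold change of -0.30 and Rbm5, a regulator of Fas splicing, by -0.21, with edgeR adjusted p-values of 0.111 and 0.114. Rbm3, the cold-induced RNA-binding protein, had a log2 fold change of -0.24 (edgeR adjusted p = 0.140).

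Other large estimates came with large errors. Rbmx2 lay between 0.329 and 1.75 CPM and had a log2 fold change of -0.72 (SE 0.348), Rbms3 -0.35 (SE 0.198) and Rbm4 0.35 (SE 0.286), with edgeR adjusted p-values of 0.317, 0.387 and 0.563. Over the 15 alternative fits they ran from -1.26 to -0.41, from -0.60 to -0.17 and from 0.12 to 0.54, with the ends set by leaving out male LKO library 1 or 2 for Rbmx2 and Rbms3 and female LKO library 1 or 2 for Rbm4. In the LKO groups of Rbmx2 the libraries ran from 0.730 to 1.27 CPM in females and from 0.329 to 1.09 CPM in males. Of the exonic bases of Rbm4, 60.5% also belong to the annotated gene Gm21992, so its level is uncertain.

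The estimates were small beside those of all genes. Of the 92 tested genes, 4 (4.35%) had an absolute log2 fold change over 0.5, against 12.2% of all genes tested, and 81 (88%) had a 95% interval within 0.5 of 0, against 55.7%. Low genes vary more, so the same was read at a mean of at least 10 CPM. There the median absolute log2 fold change was 0.0688 over 78 of the 92 genes and 0.0902 over 8077 genes, none of the 78 and 2.85% of the 8077 exceeded 0.5, and 98.7 and 89.5% had such an interval. The 78 estimates ran from -0.30 to 0.30. Of these, 50 lay below 0, with a median of -0.0263, against 3293 of the 8077, with a median of 0.0297. The coefficient of variation over all 8 libraries had a median of 7.86% for the 78 and 9.64% for the 8077 genes, and was lowest for Srsf9, an SR protein, at 2.71%. Summed over the 102 genes, the level was 5127 and 5134 CPM in female floxed, 4950 and 5007 CPM in female LKO, 4998 and 4786 CPM in male floxed and 4643 and 4604 CPM in male LKO libraries. The LKO sums were 2.96% lower in females and 5.49% lower in males, as a description.

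**Figure D4:**
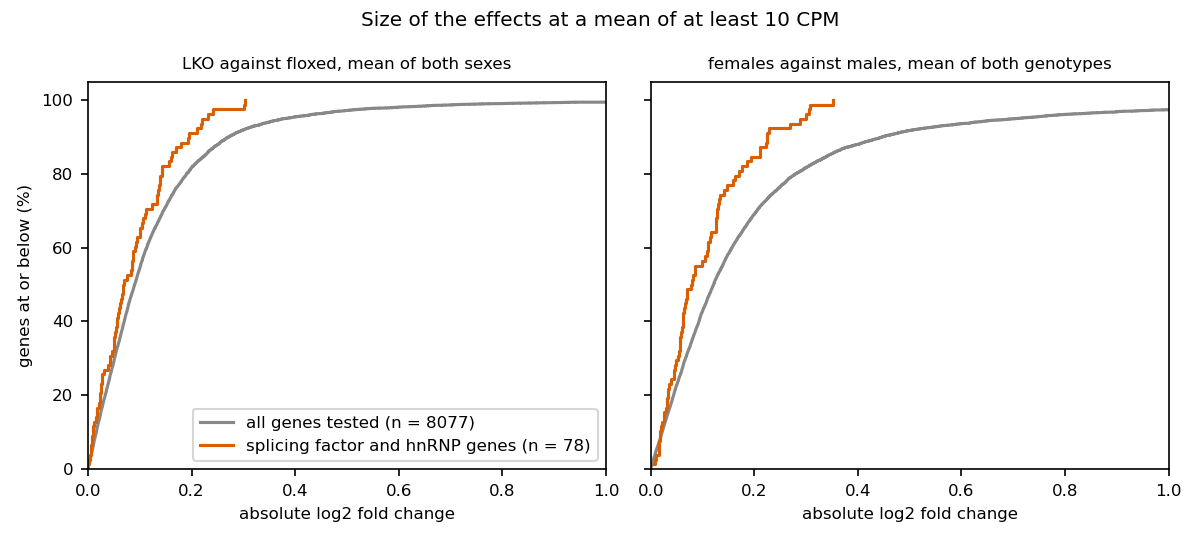
Share of genes, in percent, with an absolute log2 fold change at or below the value on the x axis, for genes with a mean of at least 10 CPM. The left panel shows LKO against floxed livers and the right panel females against males, and in both the curve of the 78 splicing factor and hnRNP genes reaches 100% before 0.5 while that of all 8077 genes does not.

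Within each sex none of the 92 genes passed. In females 0.584% of all genes were called by edgeR, 2.15% by DESeq2 and 0.927% by limma-voom, and none of the 92 by any of them. At an unadjusted p under 0.05 it was 11 of 92, against 14.1% of all genes. In males 0.205% of all genes were called by edgeR, 1.56% by DESeq2 and 0.181% by limma-voom, again none of the 92, and 13 of 92 had an unadjusted p under 0.05, against 11.8% of all genes. The difference of the LKO effect between the sexes passed for none of the 92 (0.00602% of all genes by edgeR, 0.47% by DESeq2 and 0.00602% by limma-voom), and 7 of 92 had an unadjusted p under 0.05, against 7.16% of all genes. These 7 were Hnrnpm, Rbm26, Rbm46, Rbm47, Snrpd3, U2af1 and U2af2, with edgeR adjusted p-values between 0.604 and 0.673. The share is near that of all genes, and nothing is read from which genes they are.

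In males Rbm43, described above, had the smallest p (edgeR adjusted p = 0.155), followed by Hnrnpm and Rbm47. Hnrnpm stood at 92.9 and 95.3 CPM in male floxed and 75.7 and 77.9 CPM in male LKO libraries, a log2 fold change of -0.29 (SE 0.0782, edgeR adjusted p = 0.210), and at 0.02 in females. Rbm47, a cofactor of the APOBEC1 editing of Apob mRNA, stood at 74.8 and 74.3 CPM in male floxed and 87.7 and 96.2 CPM in male LKO libraries, a log2 fold change of 0.30 (SE 0.0823, edgeR adjusted p = 0.217), and at -0.02 in females. In females the hnRNP with the largest estimate was Hnrnpa1, at -0.35 (SE 0.106, edgeR adjusted p = 0.195). Rbm8a, a core protein of the exon junction complex, had a log2 fold change of 0.28 in females (SE 0.0829, edgeR adjusted p = 0.176) and 0.03 in males. The difference of the LKO effect between the sexes did not pass for Hnrnpm, Rbm47, Hnrnpa1 or Rbm8a. Their edgeR adjusted p-values for it were 0.619, 0.630, 0.793 and 0.709.

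The rest of the machinery was read from lists. Of 73 other spliceosome genes, none passed in LKO against floxed livers as the mean of both sexes, in females or in males. As the mean of both sexes 1 was higher and 7 lower at an unadjusted p under 0.05, with a median log2 fold change of -0.04. At that p 8.82% of all genes tested were higher and 9.36% lower. Nothing is read from the counts at an unadjusted p, here or in the lists that follow. Of 63 other splicing regulators 57 were tested, with a median of -0.06, and none rose. None of the 10 genes of SR protein phosphorylation and import and none of the 10 nonsense-mediated decay genes passed, and at an unadjusted p under 0.05 it was 1 higher of the first and 2 lower of the second. Among the regulators Pspc1 fell. This paraspeckle protein gene (mm10 chromosome 14, 56720710 to 56778316, minus strand) stood at 8.73 and 7.61 CPM in female floxed, 4.77 and 4.20 CPM in female LKO, 6.94 and 7.74 CPM in male floxed and 5.76 and 5.67 CPM in male LKO libraries. It fell by 0.61 on the log2 scale (SE 0.104, edgeR adjusted p = 0.0286), by 0.86 in females (edgeR adjusted p = 0.0477), and its log2 fold change in males was -0.36 (edgeR adjusted p = 0.392). The difference between the sexes did not pass (edgeR adjusted p = 0.675). Without any 1 of the female or the male LKO libraries its edgeR adjusted p lay between 0.0602 and 0.155 for the mean effect and between 0.0864 and 0.384 for the effect in females. Nono and Sfpq, the other 2 members of the family of Pspc1, had log2 fold changes of 0.05 and -0.006.

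Between the sexes more of the 92 genes differed. As the mean of both genotypes, 9 were higher and 2 lower in females than in males (edgeR adjusted p under 0.05), where all genes gave 7.69% higher and 8.14% lower. With DESeq2 it was 3 (Hnrnph1, Srsf2 and Srsf5) and 1 (Rbm47), against 7.1 and 7.79% of all genes. All 4 female libraries lay above all 4 male ones for 10 genes and below them for 3, against 8.94 and 8.92% of all genes. Females were higher in Hnrnph1, Hnrnpa3, Hnrnph3, Hnrnpr, Srsf2, Srsf5, Rbm5, Rbm34 and Rbm46, and lower in Rbm47 and Snrpa1. Of the calls, 4 were hnRNP and 2 SR protein genes, and the rest were Rbm and Snrp genes. As shares of the 92 tested genes the calls were 9.78% higher and 2.17% lower, and nothing is read from their families.

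**Figure D5:**
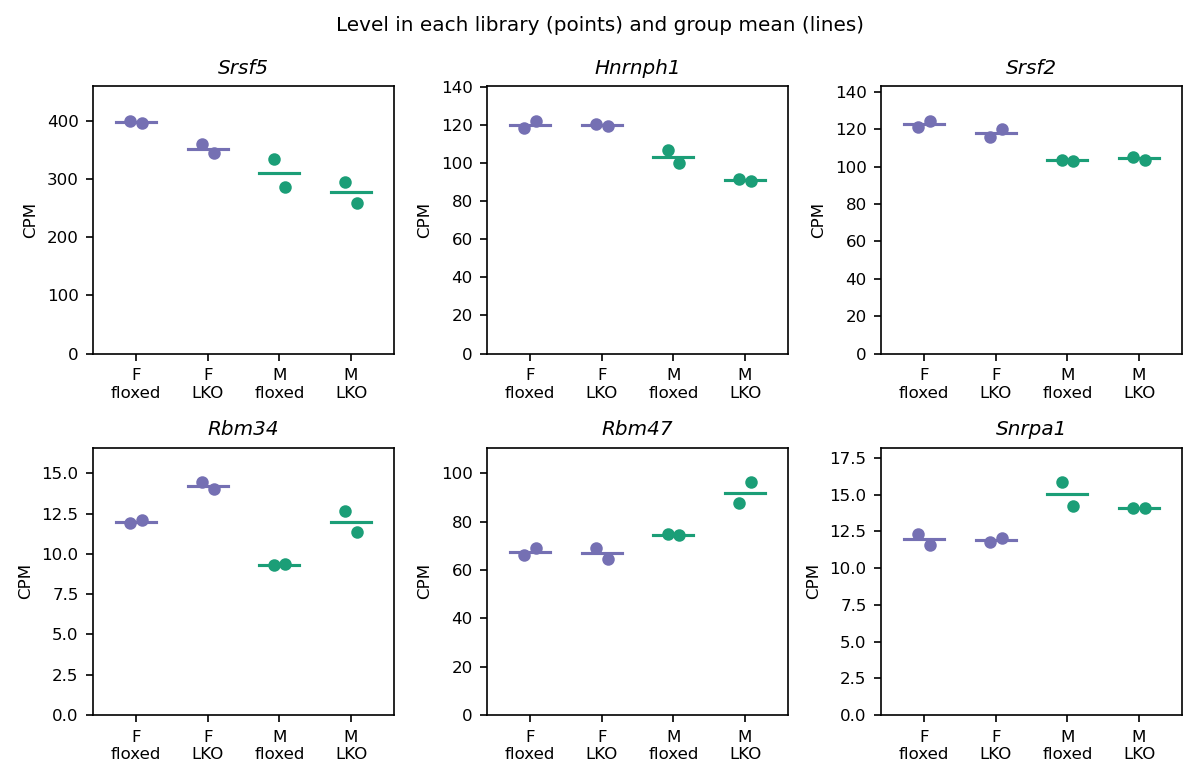
Level in CPM of Srsf5, Hnrnph1, Srsf2, Rbm34, Rbm47 and Snrpa1 in each library. Points are libraries, lines are means of 2 libraries, purple marks females and green males, and each axis starts at 0. All female libraries are above all male ones for Srsf5, Hnrnph1 and Srsf2 and below them for Rbm47 and Snrpa1, while the groups of Rbm34 overlap.

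Hnrnph1, which binds runs of G in pre-mRNA, stood at 118.1 and 122.0 CPM in female floxed, 120.3 and 119.6 CPM in female LKO, 106.5 and 99.9 CPM in male floxed and 91.7 and 90.3 CPM in male LKO libraries. Females were higher by 0.31 on the log2 scale (SE 0.0539, edgeR adjusted p = 0.00508). Rbm47 stood at 66.1 and 69.1 CPM in female floxed, 69.2 and 64.5 CPM in female LKO and, as above, at 74.3 to 96.2 CPM in males, with a log2 fold change of -0.30 (SE 0.0582, edgeR adjusted p = 0.00843). These 2 calls held in every one of the 15 alternative fits run. Srsf5 stood at 400.8 and 396.3 CPM in female floxed, 360.5 and 345.1 CPM in female LKO, 335.5 and 286.4 CPM in male floxed and 295.8 and 259.6 CPM in male LKO libraries. Its female libraries were all above its male ones, by 0.35 on the log2 scale (SE 0.0739, edgeR adjusted p = 0.0121), and its call was lost without female floxed library 1 or 2 or male LKO library 2 (edgeR adjusted p = 0.0515 to 0.0613).

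The other 8 calls were each lost without female floxed library 1, female floxed library 2 or female LKO library 2, and all but that of Rbm5 without female LKO library 1 (edgeR adjusted p = 0.0502 to 0.153). Male libraries decided some of them too: the call was lost without male floxed library 1 for Hnrnph3, Snrpa1 and Rbm46, without male floxed library 2 for Hnrnpa3, Hnrnph3, Hnrnpr, Rbm5 and Rbm46, without male LKO library 1 for Hnrnpa3, Hnrnpr, Rbm5, Rbm46, Snrpa1 and Srsf2, and without male LKO library 2 for Hnrnph3, Hnrnpr, Rbm5, Rbm34, Rbm46, Snrpa1 and Srsf2. Srsf2 (SC35), the SR protein that marks nuclear speckles, stood at 115.7 to 124.5 CPM in females and 103.0 to 105.4 CPM in males, with a log2 fold change of 0.21 (SE 0.0522, edgeR adjusted p = 0.0252). Snrpa1, the A′ protein of the U2 snRNP, stood at 11.6 to 12.3 CPM in females and 14.1 to 15.8 CPM in males, with a log2 fold change of -0.29 (SE 0.0731, edgeR adjusted p = 0.0288). Rbm34 was higher in females by 0.31 (edgeR adjusted p = 0.0240), Hnrnph3 by 0.27 (0.0417), Hnrnpa3 by 0.22 (0.0365), Rbm5 by 0.22 (0.0326) and Hnrnpr by 0.19 (0.0446), all on the log2 scale with the edgeR adjusted p in parentheses. Rbm46 stood at 0.251 to 0.418 CPM in females and 0.032 to 0.253 CPM in males, where 3 counts are 0.0684 to 0.110 CPM over the 8 libraries, so its log2 fold change of 1.72 rests on few reads. Of the exonic bases of Srsf2, 25.3% lie antisense to other genes, and of the 50-base words of Hnrnpa3 27.1% occur in other genes.

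At a mean of at least 10 CPM, the median absolute log2 fold change between the sexes was 0.0785 over the 78 genes and 0.121 over 8077 genes, and none of the 78 against 8.28% of the 8077 exceeded 0.5. The 6 tested genes on the X chromosome, among them Rbmx, Rbm3 and Rbm10, had a median log2 fold change between the sexes of 0.03, and none passed. Cell type markers also differed between the sexes: 8 of 10 Kupffer cell, 2 of 10 endothelial and 4 of 10 stellate cell markers were called higher in females. Of the 11 hepatocyte markers 3 were called higher and 2 lower, and Alas2 of the erythroid and Cd4 of the lymphocyte markers were called lower. The hepatocyte list, with the values given above, summed to more in every female than in every male library. The erythroid list summed to 87.3 to 99.5 CPM in female floxed, 77.1 to 80.4 in female LKO, 161 to 209 in male floxed and 164 to 188 in male LKO libraries. The Kupffer cell list summed to 454 to 455 CPM in female floxed, 471 to 489 in female LKO, 330 to 349 in male floxed and 271 to 346 in male LKO libraries. The endothelial list summed to 252 to 273, 218 to 248, 205 to 232 and 192 to 216 CPM in the same order. Of 17 immediate-early genes, 4 were called lower and 1 higher in females. The part of these markers in the sex differences was not tested. Among the other spliceosome genes 1 of 73 was higher and 4 lower in females, and among the other splicing regulators 4 of 57 were higher and 2 lower. Over all genes tested 7.69% were called higher and 8.14% lower.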

How the data were processed

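Liver RNA of 8 libraries in 4 groups was measured. The values are raw read counts per gene, deposited by the authors with gene lengths. The authors used HISAT2 2.0.5, featureCounts 1.5.0-p3 and the mm10 build, per the submitters' processing notes. Not given in the sources used here are the annotation release, whether counting used strand and how reads shared by several genes were treated. Counts of paralogs and of overlapping or antisense genes are therefore less certain. The table has 54532 genes, and 3 lines without a gene were left out. Per the labels' protocols, each library came from RNA of 2 mice.

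All 8 libraries were fitted together in R 4.3.3 with edgeR 4.0.16 (TMM, filterByExpr, 1 coefficient per group, quasi-likelihood test, 4 residual degrees of freedom, prior of 4.93, common dispersion 0.0156). The 16613 genes tested held 99.94% of the counts. P-values were adjusted by Benjamini-Hochberg over all of them, with 0.05 as the threshold. SE is the log2 fold change over the root of F, and intervals use the t distribution with the moderated degrees of freedom. As alternatives, DESeq2 1.42.0, limma-voom (limma 3.58.1), RLE size factors, other filters, a robust prior, the replicate number as a block, only the libraries of 1 sex, and fits without 1 library were run. The fit was also run on counts simulated from its own dispersions. These hold no batch effect, so nothing is read from that run here.

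Genes were named by rule: Matr3, members that passed in any comparison, in each prefix family the member with the highest RPKM and that with the smallest p, the 5 largest changes at a mean of at least 1 CPM, and listed genes that passed, of which 1 is not reported here. Other named genes were chosen after their values were seen. The members and the lists were chosen with earlier results of these data known. Overlap and shared 50-base words were computed from GENCODE M21 on GRCm38, where 96 of the 102 members have the coordinates of the count table, and promoters were read from RefSeq on GRCm38.p6. The GENCODE exon length was added as an alternative after seeing the data.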

Additional observations from a re-analysis of the deposited data

How the results depend on the processing

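The counts of called genes moved with the setting. For the mean LKO effect, no filter on low counts gave 4 members lower (Hnrnpa1, Rbm3, Rbm43 and Rbm4b), and leaving out 1 library at a time gave 0 to 4 lower and 0 to 1 higher, the most without male floxed library 2. In all genes tested (291 called) it gave 1560 without a filter, 619 with DESeq2 and 32 to 1114 without 1 library. For females, 1 member was lower without a filter and 0 to 1 lower and 0 higher without 1 library. In all genes (97 called) it was 358 with DESeq2, 154 with limma-voom, 1092 without a filter, 148 with a robust prior, 343 with only the female libraries and 3 to 396 without 1 library. For males, 1 member was lower without a filter, and 0 to 1 lower and 0 to 1 higher without 1 library. In all genes (34 called) it was 259 with DESeq2, 873 without a filter, 55 with a robust prior, 4 with only the male libraries and 7 to 518 without 1 library. For the difference between the sexes no alternative called a member, and in all genes (1 called) it was 78 with DESeq2, 439 without a filter, 11 with a robust prior and 0 to 96 without 1 library. Between females and males, DESeq2 gave 3 members higher and 1 lower, and leaving out 1 library gave 1 to 12 higher and 1 to 3 lower, with 1530 to 3361 of all genes. The estimate of Rbm17 in the mean LKO effect changed sign to 0.0078 without female LKO library 2 and 0.022 without male LKO library 2, and that of Snrpb to -0.0049 without female LKO library 1 and -0.00077 without male floxed library 1. Without 1 library they ranged from -0.063 to 0.022 and from -0.0049 to 0.052. The cause of these changes was not tested. With 1 library left out, the spread of its group is taken from the other groups.

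By replicate number, the correlation of deviations between groups lay between -0.193 and 0.119. It was negative between female floxed and each other group, and 0.0987 to 0.119 among the other groups. No clear pairing was seen, but correlations this weak cannot exclude a batch shared by some libraries. With the replicate number as a block, 0 members were lower in the mean LKO effect (Rbm43 at an edgeR adjusted p of 0.0634), 236 of all genes were called, and 8 members were called between the sexes. With RLE size factors 91 of 92 members kept the sign of the mean LKO effect, and the median of all genes moved from -0.0042 to -0.0011. With 2 libraries per group, no group could be checked for a library that stands apart, and low genes such as Rbm46 and Rbmx2 are limited by depth.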
